A study of Mus musculus with 3 samples.

Results

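The cell division programme of the mouse ovary was followed here through 41 genes, 18 that act in S phase, when DNA is copied, and 23 that act in G2 and mitosis (G2/M), when chromosomes are packed and separated. The genes were taken by symbol, and all 41 were among the 53465 genes of the deposited tables, each under 1 identifier. Gene expression had been measured in single cells of whole ovaries of wild-type C57BL/6 female mice at embryonic day 16.5 (ED16.5), postnatal day 7 (PND7) and postnatal day 14 (PND14). The embryonic library is titled day 17, against 16.5 in its age label. Each age was 1 library, and the labels do not say how many animals or ovaries went into it. The ovaries were digested with collagenase and passed through a 40 μm filter, which can hold back large oocytes and clumps, so the shares of cells below describe the cells that passed. The Chromium 3′ kit tags every captured mRNA near its polyadenylated end with a unique molecular identifier (UMI), and all libraries shared a sequencing lane. Levels are given as counts per 1000000 UMIs of a cell class (CPM), which are not divided by gene length because a molecule is tagged only at its 3′ end. Each age being 1 library, differences between ages could not be set against replicates, and no test was made. The 95% intervals, exact Poisson for levels, exact binomial for ratios and Clopper-Pearson for shares, cover counting error only, and UMIs of 1 library share its handling.

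The tables held 459, 510 and 585 barcodes at ED16.5, PND7 and PND14, of which 456, 509 and 583 were kept, with totals of 8994085, 8743797 and 9065595 UMIs over all barcodes. Libraries shared 0 barcodes. Cells were placed in classes by marker genes that include no cell cycle gene, and the classes are called granulosa-like, stroma-like and so on because no deposited file names the cells. Granulosa-like cells numbered 72, 89 and 90 at the 3 ages in that order, stroma-like cells 96, 326 and 328, endothelium-like cells 19, 21 and 27, germ-cell-like cells 71, 12 and 3, erythroid-like cells 166, 16 and 9, and theca-like cells 0, 1 and 44. A class cut from a score is a range and not a type: the margin over the next class was below 1.5 in 4, 0 and 4 granulosa-like cells and in 1, 6 and 25 stroma-like cells. In granulosa-like cells the median score for stroma markers was 0.04, 0.05 and 0.05 against 0.53, 0.50 and 0.49 for granulosa markers. Different clusters held most of the granulosa-like and of the stroma-like cells at each age. Granulosa-like cells lay mostly in cluster 8 at ED16.5 (67 of 72), cluster 7 at PND7 (77 of 89) and cluster 5 at PND14 (85 of 90), and stroma-like cells in cluster 4 (96 of 96), clusters 1, 3 and 10, and clusters 0, 2 and 10.

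A dividing cell first licenses its origins of replication, loading the Mcm2 to Mcm7 helicase with Cdc6 and Cdt1, and then copies its DNA with the Pcna clamp and newly made nucleotides. In mitosis the Cdk1 kinase with cyclins B condenses the chromosomes and builds the spindle, the Bub1 and Bub1b checkpoint waits for the last chromosome to attach, and Cdc20 with Ube2c then turns on the ubiquitin ligase that destroys cyclin B. Most S phase genes are controlled by E2F factors. Most mitotic genes are controlled by the DREAM and B-MYB complexes through a promoter element called the cell cycle genes homology region (CHR). It usually lies next to CCAAT boxes bound by NF-Y. In the ovary, pregranulosa cells are known to leave the cell cycle as they enclose oocytes in primordial follicles and granulosa cells divide again when follicles grow, while oocytes arrest in meiotic prophase.

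The promoters of the members show both of these elements. The 6 sequences printed are those of Cdc20 and Prc1, which had the largest ratios between ED16.5 and PND7 in granulosa-like cells, of Plk1, the G2/M member furthest below its PND7 level in PND14 stroma-like cells, of Uhrf1 and Mcm6, S phase members with large ratios in granulosa-like and stroma-like cells, and of Birc5, an abundant G2/M member in which none of the motifs was found. Each runs 5′ to 3′ from 250 bases before to 50 bases after a RefSeq start site on build GRCm38.p6. Uhrf1 and Prc1 each have another RefSeq promoter that is not printed. That of Uhrf1 (chr17:56303087-56303386) held 0 of the E2F forms named below, and that of Prc1 (chr7:80294226-80294525) held TTTGAA and CCAAT. Capitals mark TTTGAA (CHR) and CCAAT in G2/M members, and the E2F forms TTTCCCGC, TTTGGCGC, TTTCGCGC and TTTGCCGC in S phase members, on either strand.
Cdc20 (ENSMUSG00000006398.15), chr4:118437294-118437593, minus strand: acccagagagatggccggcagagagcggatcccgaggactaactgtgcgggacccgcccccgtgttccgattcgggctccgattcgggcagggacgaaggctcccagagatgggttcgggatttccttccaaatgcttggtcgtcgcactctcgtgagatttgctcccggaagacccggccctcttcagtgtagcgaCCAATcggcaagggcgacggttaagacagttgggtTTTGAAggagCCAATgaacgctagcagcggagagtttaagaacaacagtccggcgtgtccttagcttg
Prc1 (ENSMUSG00000038943.16), chr7:80294201-80294500, plus strand: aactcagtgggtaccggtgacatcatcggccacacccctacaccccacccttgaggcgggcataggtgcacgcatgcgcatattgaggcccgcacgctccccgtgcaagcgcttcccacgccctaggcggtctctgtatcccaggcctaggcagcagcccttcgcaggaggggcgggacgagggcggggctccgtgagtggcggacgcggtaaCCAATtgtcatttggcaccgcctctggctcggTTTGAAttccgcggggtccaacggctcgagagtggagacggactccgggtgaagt
Plk1 (ENSMUSG00000030867.7), chr7:122159185-122159484, plus strand: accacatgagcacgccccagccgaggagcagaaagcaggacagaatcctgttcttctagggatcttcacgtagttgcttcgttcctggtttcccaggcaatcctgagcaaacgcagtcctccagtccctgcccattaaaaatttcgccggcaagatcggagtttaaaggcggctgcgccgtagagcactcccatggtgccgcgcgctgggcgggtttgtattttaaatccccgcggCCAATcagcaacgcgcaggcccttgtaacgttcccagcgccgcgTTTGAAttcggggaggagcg
Uhrf1 (ENSMUSG00000001228.14), chr17:56304063-56304362, plus strand: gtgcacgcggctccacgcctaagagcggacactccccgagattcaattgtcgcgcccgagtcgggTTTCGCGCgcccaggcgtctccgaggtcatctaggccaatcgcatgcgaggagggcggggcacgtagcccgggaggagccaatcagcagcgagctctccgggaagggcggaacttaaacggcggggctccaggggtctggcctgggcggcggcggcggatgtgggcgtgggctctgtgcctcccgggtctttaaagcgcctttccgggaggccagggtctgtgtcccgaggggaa
Mcm6 (ENSMUSG00000026355.11), chr1:128359656-128359955, minus strand: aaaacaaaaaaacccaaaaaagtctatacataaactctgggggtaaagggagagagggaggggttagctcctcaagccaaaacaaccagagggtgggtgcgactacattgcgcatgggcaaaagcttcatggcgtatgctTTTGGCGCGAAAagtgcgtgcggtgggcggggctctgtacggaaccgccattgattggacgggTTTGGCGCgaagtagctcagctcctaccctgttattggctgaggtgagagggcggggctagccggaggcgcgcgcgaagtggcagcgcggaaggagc
Birc5 (ENSMUSG00000017716.15), chr11:117848987-117849286, plus strand: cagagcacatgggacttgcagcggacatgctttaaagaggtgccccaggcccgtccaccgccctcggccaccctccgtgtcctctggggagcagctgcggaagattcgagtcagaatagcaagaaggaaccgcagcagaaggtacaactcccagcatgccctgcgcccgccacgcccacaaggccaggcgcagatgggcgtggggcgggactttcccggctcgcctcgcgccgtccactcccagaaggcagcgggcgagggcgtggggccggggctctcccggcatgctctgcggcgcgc

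The RefSeq table held 37 promoters of 34 of the 41 members and 32851 promoters in all, each of 300 bases. TTTGAA was found in 14 of 20 G2/M promoters (13 of 19 genes), in 1 of 17 S phase promoters (that of Mcm2) and in 17.89% of all promoters. In the G2/M promoters with TTTGAA the 19 matches began a median of 23 bases before the start site, against 124 bases over all promoters with the motif. The 4 E2F forms were found in 8 of 17 S phase promoters, in 1 of 20 G2/M promoters (that of Cdk1) and in 2.265% of all promoters. Their 13 matches in S phase promoters began a median of 106 bases before the start site, against 88 bases over all promoters with a form, so they were not nearer to it. CCAAT was found in 18 of 20 G2/M and 13 of 17 S phase promoters and in 37.41% of all. TTTGAA and CCAAT stood together in 14 of 20, in 1 of 17 and in 6.953% of all, and their matches shared bases in 0 member promoters, while E2F matches shared bases with another motif in 1. A match is a description of letters, not a binding site, and the genes in which none was found may hold other forms.

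**Figure D1:**
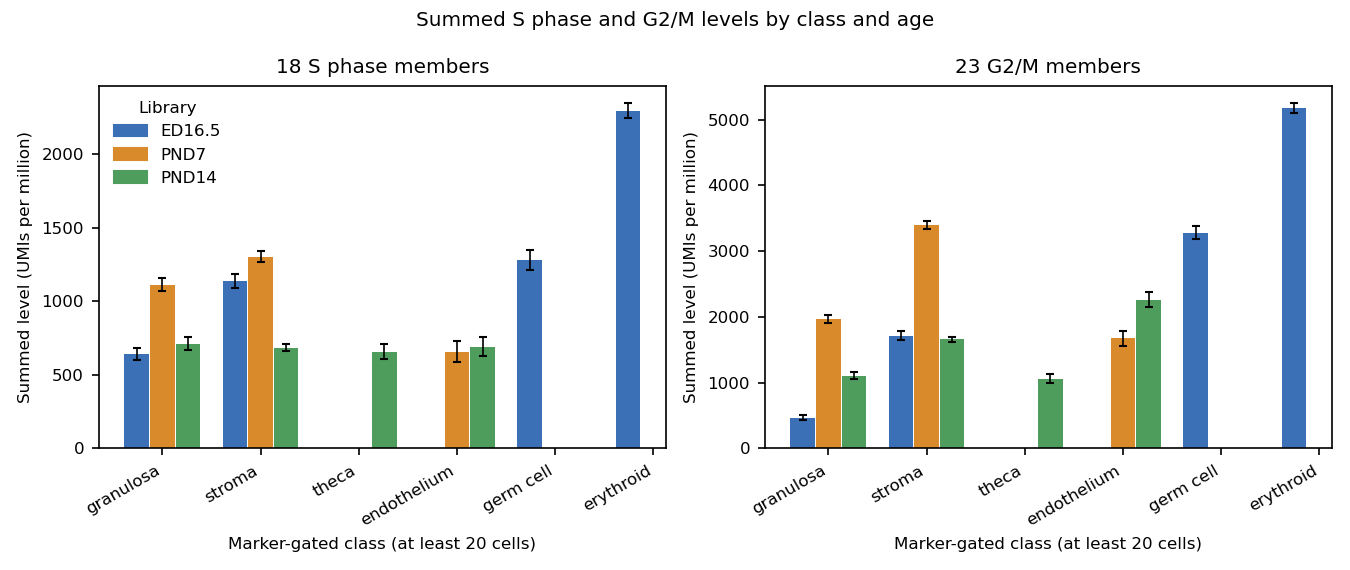
Summed levels of the S phase members (left) and G2/M members (right) in CPM, for each marker-gated class with at least 20 cells in a library. Bars are single libraries, coloured by age, and error bars are exact Poisson 95% intervals that cover counting error only. Granulosa-like cells stand at 469, 1971 and 1103 CPM for G2/M at the 3 ages, with PND7 highest, and erythroid-like cells at ED16.5 are the highest class of those drawn.

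Granulosa-like cells were lowest in mitotic genes at ED16.5 and highest at PND7. Their 23 G2/M members summed to 469 CPM (interval 435 to 505) at ED16.5, 1971 CPM (1910 to 2034) at PND7 and 1103 CPM (1051 to 1157) at PND14. The 18 S phase members summed to 638 CPM (598 to 680), 1112 CPM (1066 to 1159) and 711 CPM (669 to 755). The intervals of the 3 ages did not overlap for G2/M, and for S phase those of ED16.5 and PND14 overlapped. The PND7 level was thus 4.20-fold the ED16.5 level for G2/M (3.88 to 4.56) and 1.74-fold for S phase (1.61 to 1.88). Cells placed in no class are left out of these values. At ED16.5 they were 18 cells, with median scores of 0.38 for granulosa and 0.21 for stroma markers. Their G2/M sum was 2001 CPM, and 11 had at least 5 G2/M UMIs per 10000. The 12 and 44 such cells of PND7 and PND14 had G2/M sums of 2378 and 1962 CPM and scored highest for stroma and smooth muscle. Their cell type was not tested.

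Mitotic members made up most of the members past 2-fold. Of 23 G2/M members 21 were at least 2-fold higher at PND7 than at ED16.5 and 0 lower, on the scale of log2(CPM + 10), which understates the ratios of low genes. Over the 13034 genes with at least 10 UMIs in both sums together, 3.58% were higher and 5.07% lower by that much. Of 18 S phase members 4 were higher and 0 lower. The median log2 ratio was 1.89 over G2/M members and 0.73 over S phase members, against −0.11 over all genes. Scaling by median of ratios in place of totals set the zero at −0.17 on this scale and turned the split over all genes to 4.56% higher and 4.24% lower. With joint clusters as classes the ED16.5 G2/M sum was 704 CPM and 2 S phase members were past 2-fold, against 10 with a stricter margin between classes and 7 with a pseudocount of 1 CPM.

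The size of the ratio differed between roles. Spindle and kinetochore genes (Kif11, Tpx2, Nusap1, Prc1, Cenpe, Cenpf and Birc5) summed to 62.6 CPM at ED16.5 and 441 CPM at PND7, a ratio of 7.04 (5.68 to 8.82). Checkpoint and anaphase genes (Bub1, Bub1b, Cdc20 and Ube2c) had a ratio of 6.16 (4.78 to 8.05), and the mitotic kinases and cyclins with Cks2 a ratio of 4.13 (3.61 to 4.75). Of the mitotic roles, the chromatin genes Top2a, Hmgb2 and Mki67 had the lowest ratio, 2.88 (2.52 to 3.29). In S phase, the clamp, nucleotide and uracil repair genes stood at 2.27 (1.95 to 2.65), the origin licensing and helicase genes at 1.71 (1.53 to 1.92), and Slbp, Uhrf1 and Dtl together at 1.35 (1.16 to 1.57).

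Cdc20, which hands cyclin B to the ubiquitin ligase at anaphase, stood at 8.07 CPM at ED16.5 (12 UMIs), 87.7 CPM at PND7 (173 UMIs) and 30.3 CPM at PND14 in granulosa-like cells. Prc1, which bundles microtubules between the separating chromosomes, stood at 2.02 CPM (3 UMIs), 51.7 CPM (102 UMIs) and 34.3 CPM. PND7 was the highest of the 3 libraries for both genes, with a ratio to ED16.5 of 10.9 (6.06 to 21.4) for Cdc20 and of 25.6 (8.52 to 126) for Prc1. Ube2c, the ubiquitin-conjugating enzyme of the same ligase, stood at 25.6, 157 and 81.8 CPM, a ratio of 6.15 (4.38 to 8.85). At the other end of the scale with the added 10 CPM, Bub1 was at 6.73 and 16.7 CPM and Bub1b at 5.38 and 20.3 CPM. Hmgb2, a chromatin protein of the HMG-box family, was there too, at 155 and 325 CPM. By plain ratio Bub1b (3.77-fold) stood above Cks2 (2.98-fold). Hmgb2 was the most abundant G2/M member of this class at each age and one of those with the smallest ratios, 2.09 (1.80 to 2.44). Cks2, a small partner of Cdk1 and second in abundance at ED16.5 and PND7, stood at 89.5, 267 and 128 CPM. Top2a, which untangles sister chromatids, stood at 26.9, 161 and 129 CPM, and Mki67, which coats mitotic chromosomes, at 10.1, 67.9 and 27.0 CPM.

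Among S phase members, Uhrf1, which brings the maintenance methylase to newly copied DNA, stood at 10.1, 56.3 and 25.1 CPM at the 3 ages, a PND7 to ED16.5 ratio of 5.58 (3.24 to 10.3). Rrm2, the regulated subunit of ribonucleotide reductase, stood at 18.2, 55.3 and 34.3 CPM (ratio 3.04, 1.98 to 4.82), and Gmnn, which blocks Cdt1 once replication has begun, at 27.6, 75.5 and 36.9 CPM (ratio 2.74, 1.93 to 3.97). Pcna was at 43.7, 103 and 60.7 CPM, and with Uhrf1, Rrm2 and Gmnn made up the 4 members past 2-fold. Slbp, which binds the stem-loop of histone mRNAs, was the most abundant S phase member and nearly level, at 132, 119 and 121 CPM (ratio 0.90, 0.74 to 1.09; log2 −0.14, or 0.02 with median-of-ratios scaling). The intervals of the ratio also held 1 for the helicase genes Gins2 (1.31), Mcm4 (1.34) and Mcm5 (1.36) and for Cdc6. Mcm6, second in abundance at ED16.5, was at 65.9, 97.9 and 51.4 CPM.

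**Figure D2:**
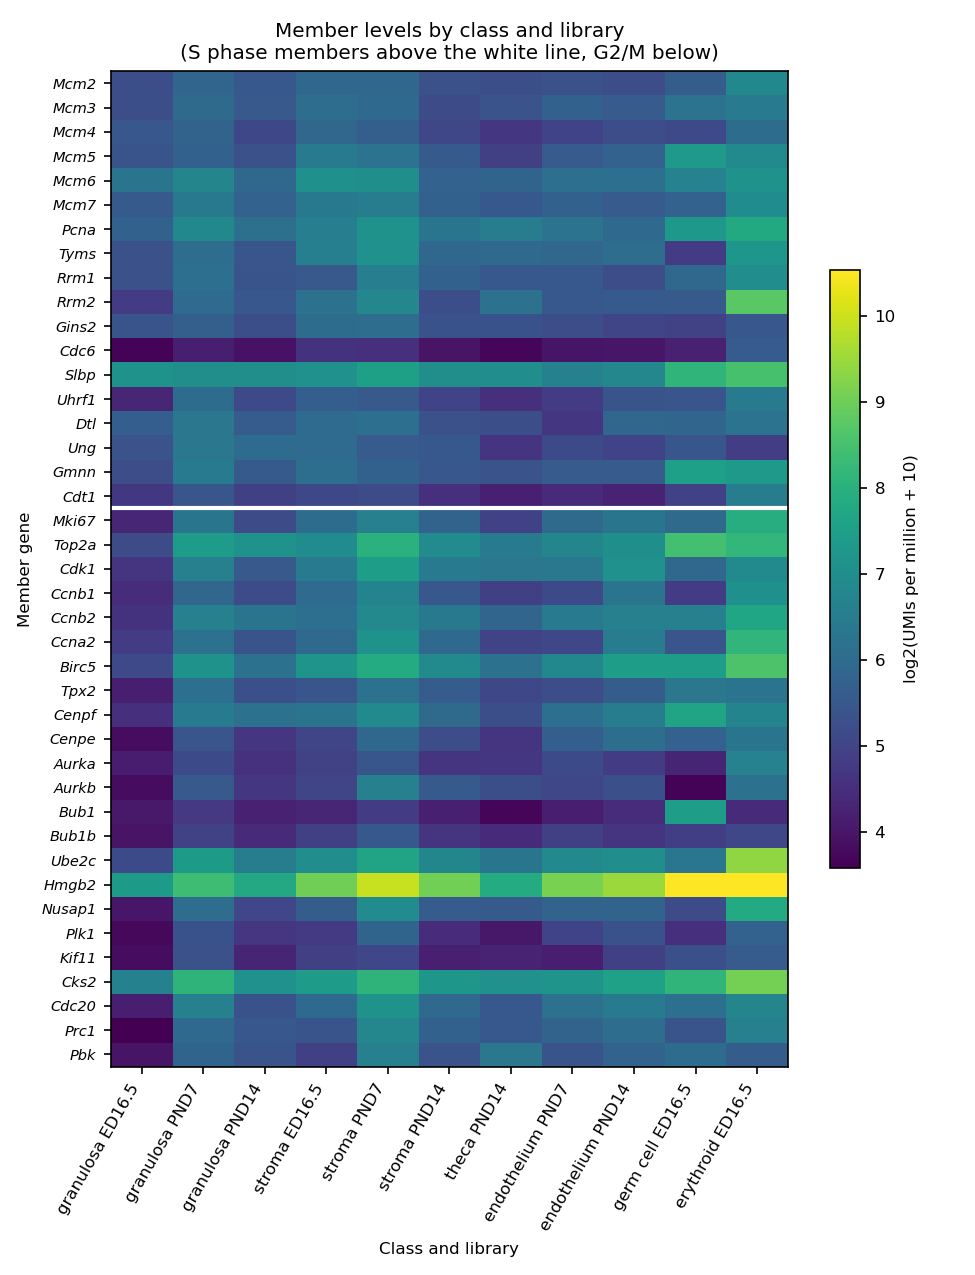
Level of each of the 41 members, as log2(CPM + 10), in each class and library; S phase members are above the white line and G2/M members below it. Hmgb2 and Slbp are bright in nearly every column, and the ED16.5 granulosa column is dark for most G2/M members, with 2.02 CPM for Prc1 and 8.07 CPM for Cdc20.

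From PND7 to PND14 the granulosa-like cells stood lower in both sets, by 1.79-fold for the G2/M sum (1.69 to 1.89) and by 1.56-fold for the S phase sum (1.45 to 1.68). This comparison and the one before share the PND7 library, so a high or low value in it enters both. Few members were past 2-fold: 5 of 23 G2/M members were lower (1.34% of all 12491 genes were) and 0 higher (1.06% of all), and of 18 S phase members 0 were lower and 0 higher. The count of 5 was 3 with median-of-ratios scaling, 1 with joint clusters as classes and 9 with a pseudocount of 1 CPM, where 2 S phase members were lower too. Of the 41 members, all but Slbp had a lower level at PND14 (Slbp too with the stricter margin, −0.09 on the log2 scale), and the median log2 ratio was −0.72 for G2/M, −0.59 for S phase and −0.03 for all genes. On the scale with the added 10 CPM, the lowest ratios belonged to Cdc20 (2.89-fold lower, 2.08 to 4.09), to Cdk1, the kinase that drives entry into mitosis (88.7 and 36.3 CPM, 2.45-fold lower), and to Mki67 (2.51-fold lower). Cenpf, a kinetochore protein (78.1 and 63.3 CPM), Top2a and Ccnb2, a B cyclin (88.7 and 67.3 CPM, 1.32-fold lower), differed least. In S phase the lowest on that scale were Uhrf1 (2.25-fold lower), Gmnn (2.05-fold) and Mcm6 (1.90-fold). Slbp (1.02-fold), Cdc6 (8.11 and 5.28 CPM) and Ung, which cuts uracil from DNA (70.5 and 54.1 CPM), differed least on it.

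Other genes differed with age in these cells. Cdkn1c, which encodes the kinase inhibitor p57, stood at 1314 CPM at ED16.5, 14.2 CPM at PND7 and 19.8 CPM at PND14, so that PND7 was 92.6-fold below ED16.5. Ccnd2, the cyclin D of granulosa cells, was highest at PND7, at 492, 1414 and 546 CPM (2.87-fold from ED16.5 to PND7). Of 12 genes of the dissociation stress response, 2 were at least 2-fold higher at PND7, Hspa1a (4.71 and 261 CPM, from 7 and 514 UMIs) and Hspa1b (2.02 and 68.4 CPM), and 2 were lower, while their sum was 6971 and 6119 CPM. Erythroid markers, which come from another cell type, summed to 6204 CPM in ED16.5 granulosa-like cells (12 of 13 measured had a UMI, Hbb-bh1 was at 0, cells ranged from 3612 to 8260), against 488 CPM at PND7 and 472 CPM at PND14. Germ cell markers summed to 333, 44.1 and 15.2 CPM in the same cells, with Zp1, Zp2, Zp3, Gdf9, Nobox and Oosp1 at 0 at ED16.5. Among the ED16.5 classes with at least 20 cells, erythroid-like and germ-cell-like cells had the highest member sums and granulosa-like cells the lowest. The part of these RNAs in the granulosa-like values was not tested.

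Stroma-like cells did not show the low embryonic level. Their G2/M sum was 1717 CPM (1656 to 1779) at ED16.5, 3395 CPM (3339 to 3452) at PND7 and 1659 CPM (1620 to 1699) at PND14, and their S phase sum 1136, 1303 and 685 CPM. PND7 was the highest library in both sets, and ED16.5 and PND14 overlapped in their G2/M intervals but not in S phase. The PND7 to ED16.5 ratio was 1.98 for G2/M (1.90 to 2.06) and 1.15 for S phase (1.09 to 1.21). Of 23 G2/M members 9 were at least 2-fold higher (1.93% of all 13459 genes were) and 0 lower (1.56% of all), and of 18 S phase members 1, Rrm1, was higher and 0 lower. The medians were 0.77 for G2/M, −0.01 for S phase and −0.00 for all genes. Heat shock genes differed here too, with Hspa1a at 13.1 and 388 CPM. Of the kinase inhibitor genes, Cdkn1c was lower at PND7 in this class as well (420 and 147 CPM, 2.86-fold), as was Cdkn1a (12.0 and 4.85 CPM). Cdkn2c (8.55 and 99.6 CPM, 11.6-fold) and Cdkn2d (21.1 and 49.2 CPM, 2.33-fold) were higher, and Cdkn1b stood at 19.96 and 18.4 CPM. The erythroid marker sum in these cells was 5344, 428 and 424 CPM by age, with 12, 10 and 8 of 13 having a UMI and Hbb-bh1 at 0 in each. The part of these RNAs was not tested.

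Pbk, a mitotic kinase, had the largest stroma-like ratio from ED16.5 to PND7, at 19.96 and 87.0 CPM (4.36-fold, 3.08 to 6.36). Aurkb, the kinase that corrects spindle attachments, stood at 22.8 and 87.2 CPM (3.83-fold, 2.75 to 5.45) and Prc1 at 31.9 and 102 CPM (3.20-fold). At the low end of the scale with the added 10 CPM were Kif11, the motor that pushes spindle poles apart (19.96 and 23.5 CPM), Bub1 (10.3 and 17.7 CPM) and Aurka, the kinase of the spindle poles (21.1 and 33.9 CPM). By plain ratio Mki67 (1.60-fold) and Ube2c (1.62-fold) were among the members below Bub1 (1.72-fold). Of the S phase members Rrm1, the large subunit of ribonucleotide reductase (36.5 and 84.8 CPM, 2.32-fold), Rrm2 (63.3 and 101 CPM, 1.60-fold) and Pcna (84.4 and 129 CPM, 1.53-fold) had the largest ratios. Ung (54.2 and 37.8 CPM, 1.43-fold lower), Gmnn (58.7 and 43.6 CPM, 1.35-fold lower) and Mcm5 (79.3 and 64.7 CPM) had the smallest. The origin licensing and helicase genes together were at 589 and 552 CPM, a ratio whose interval held 1 (0.94, 0.87 to 1.01), while the clamp and nucleotide genes were 1.48-fold higher (1.35 to 1.63). Hmgb2, again the most abundant G2/M member, stood at 512, 979 and 525 CPM at the 3 ages.

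At PND14 the stroma-like cells were below PND7 by 2.05-fold in the G2/M sum (1.99 to 2.11) and by 1.90-fold in the S phase sum (1.82 to 1.99), and all 41 members had a lower level, with Ung at 0.02 on the log2 scale under median-of-ratios scaling. This comparison again shares the PND7 library. By 2-fold or more, 10 of 23 G2/M members were lower (0.757% of all 14003 genes) and 0 higher (0.414% of all), as were 3 of 18 S phase members; with median-of-ratios scaling, whose zero was at −0.13, 6 of the 23 G2/M members were lower and the split over all genes was 0.521% higher and 0.578% lower. The medians were −0.90 for G2/M, −0.70 for S phase and −0.06 for all genes. Plk1, a kinase of centrosomes and kinetochores, was lowest of the G2/M members (47.0 and 12.2 CPM, 3.86-fold lower, 2.82 to 5.38), followed by Nusap1, a spindle microtubule binder (113 and 39.2 CPM, 2.89-fold), and the cyclin Ccnb1 (95.2 and 34.8 CPM, 2.74-fold). Rrm2 (101 and 28.2 CPM, 3.60-fold), Mcm6 (122 and 44.3 CPM, 2.75-fold) and Tyms, thymidylate synthase (127 and 50.1 CPM, 2.53-fold), were the 3 S phase members past 2-fold. Ccnb2 (1.45-fold), Bub1 (2.08-fold, from 73 and 35 UMIs) and Tpx2, the activator of Aurka (1.64-fold), differed least among G2/M members on the scale with the added 10 CPM, and Ung (1.07-fold), Gmnn (1.28-fold) and Slbp (1.46-fold) among S phase members.

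**Figure D3:**
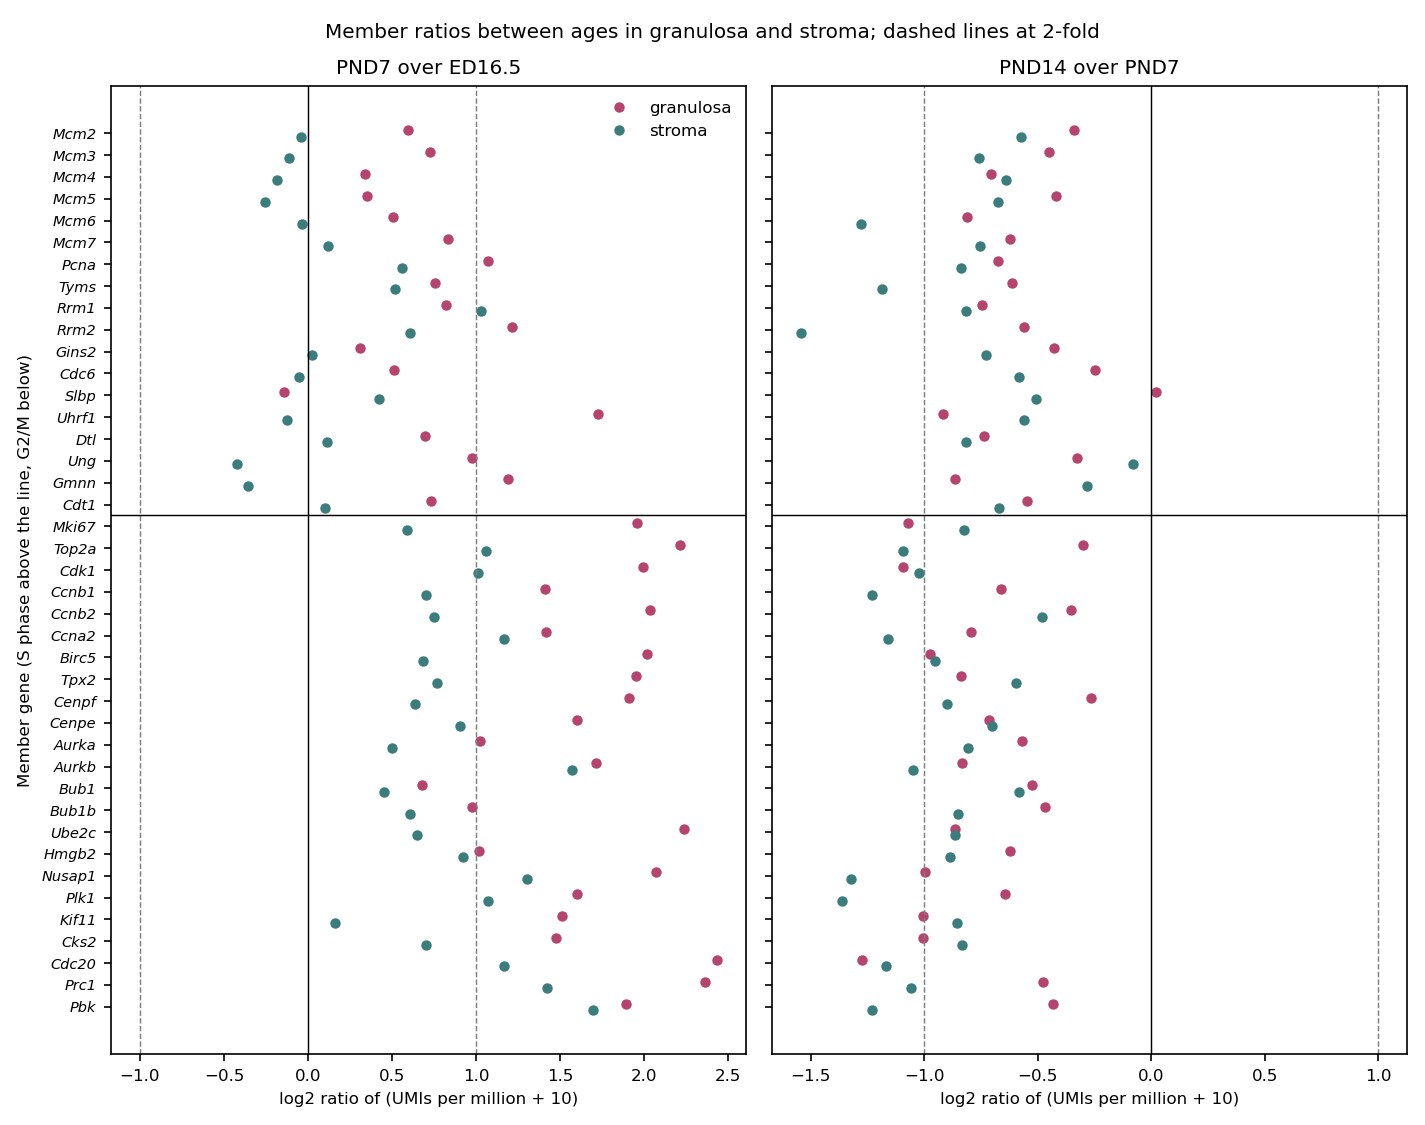
Ratio of each member between ages, as log2 of (CPM + 10), in granulosa-like and stroma-like cells, PND7 over ED16.5 and PND14 over PND7; dashed lines mark 2-fold. In granulosa-like cells the G2/M points lie mostly beyond the line on the PND7 side, 21 of 23, while 4 of 18 S phase points do; both panels use the PND7 library.

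Set side by side in the same library, granulosa-like cells were far below stroma-like cells at ED16.5 and near them at PND14. At ED16.5 stroma-like cells were 3.66-fold higher in the G2/M sum (3.37 to 3.98) and 1.78-fold higher in the S phase sum (1.65 to 1.93). Of 23 G2/M members 18 were at least 2-fold lower in granulosa-like cells (3.59% of all 12839 genes were) and 0 higher (8.12% of all), and of 18 S phase members 4 were lower, or 8 with median-of-ratios scaling, 8 with the stricter margin and 7 with a pseudocount of 1 CPM. The scaling set the zero at 0.24 and turned the split over all genes to 5.52% higher and 4.56% lower. Birc5, the survivin subunit that guides Aurkb, was 5.47-fold lower in granulosa-like cells (24.9 against 136 CPM), Cdk1 5.35-fold lower (14.8 against 79.3 CPM) and Ube2c 4.57-fold lower (25.6 against 117 CPM). These 3 were furthest on the scale of log2(CPM + 10). Among those further by plain ratio were Prc1 (15.8-fold lower, from 3 and 56 UMIs), Nusap1 (6.59-fold) and Cdc20 (6.43-fold). Bub1 (6.73 against 10.3 CPM), Cks2 (89.5 against 159 CPM) and Aurka (7.40 against 21.1 CPM) were nearest on the log2 scale. Rrm2 (3.48-fold lower), Uhrf1 (4.01-fold) and Tyms (2.89-fold) were the furthest S phase members on that scale. By plain ratio Cdc6 was further (5.30-fold lower, from 4 and 25 UMIs). Slbp (132 against 128 CPM), Rrm1 (29.6 against 36.5 CPM) and Dtl, which marks Cdt1 for destruction (40.4 against 54.2 CPM), were the nearest. Of 5 kinase inhibitor genes 3 were at least 2-fold higher in the granulosa-like cells: Cdkn1b, which encodes p27 (235 against 19.96 CPM, 11.8-fold), Cdkn1a (43.1 against 12.0 CPM, 3.60-fold) and Cdkn1c (1314 against 420 CPM, 3.13-fold). Cdkn2c was lower (2.69 against 8.55 CPM, from 4 and 15 UMIs), and Cdkn2d stood at 30.3 against 21.1 CPM.

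At PND7, 2 of 23 G2/M members, Hmgb2 (325 against 979 CPM, 3.01-fold lower) and Aurkb (36.0 against 87.2 CPM, 2.42-fold), and 1 of 18 S phase members, Tyms (56.8 against 127 CPM, 2.23-fold), were at least 2-fold lower in granulosa-like than in stroma-like cells, and 0 members were higher; 5.14% of all genes were lower and 6.69% higher. The G2/M median was −0.53 and the S phase median −0.20, against 0.05 for all genes and a median-of-ratios zero at 0.15. Ung (70.5 against 37.8 CPM), Gmnn (75.5 against 43.6 CPM) and Uhrf1 (56.3 against 36.4 CPM) were the S phase members that stood highest in granulosa-like cells, by 1.86-fold, 1.73-fold and 1.55-fold, and Kif11 was the highest of the G2/M members (1.27-fold, 0.905 to 1.78). At PND14, 1 of 23 G2/M members, Hmgb2 (208 against 525 CPM, 2.53-fold lower), and 0 of 18 S phase members were past 2-fold, while 4.5% of all genes were lower and 6.24% higher. With median-of-ratios scaling, whose zero was at 0.25, or with a pseudocount of 1 CPM 3 G2/M members were lower, and the split over all genes under that scaling was 5.53% lower and 4.21% higher. Cdk1 (36.3 against 78.4 CPM) and Aurkb (15.8 against 37.0 CPM) came next on the scale with the added 10 CPM. Ung was again the S phase member that stood highest (54.1 against 35.3 CPM, 1.53-fold, 1.15 to 2.02). The S phase sums at PND14 were 711 and 685 CPM, a ratio whose interval held 1 (1.04, 0.97 to 1.11), and the G2/M sum of stroma-like cells was 1.504-fold higher (1.43 to 1.59).

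Genes of the same pathways outside the 41 were counted the same way. Of 50 other mitosis genes 32 were at least 2-fold higher in granulosa-like cells at PND7 than at ED16.5 and 0 lower (3.58% and 5.07% of all genes). Racgap1, which organises cytokinesis (6.06 and 63.9 CPM), the centromere histone Cenpa (16.8 and 105 CPM) and Cdca3 (10.1 and 69.5 CPM) led on the scale of log2(CPM + 10), by which these lists are ranked. Pttg1, securin (50.5 and 39.5 CPM), and Cdc25b (10.8 and 11.2 CPM) were lowest. Of 40 other S phase genes 5 were higher and 0 lower, led by the ligase Lig1 (36.3 and 180 CPM), Pclaf (35.7 and 167 CPM) and Tk1, thymidine kinase (11.4 and 46.1 CPM), with Orc1 lowest (7.40 and 2.54 CPM). From PND7 to PND14 3 of 50 mitosis genes, Kif22, Cdca8 and Kif2c, and 1 of 39 S phase genes, Lig1, were lower in granulosa-like cells (1.34% of all genes). In stroma-like cells 10 of 50 mitosis and 0 of 40 S phase genes were higher at PND7 than at ED16.5 (1.93% of all genes), led by Mxd3 (19.96 and 84.3 CPM). At PND14 8 and 6 were lower (0.757% of all genes), among them Mxd3, Kif22, Cenpk, Tk1 and Pclaf. Granulosa-like cells were at least 2-fold below stroma-like cells in 17 of 49 mitosis genes and 5 of 40 S phase genes at ED16.5 (3.59% of all genes). At PND7 they were in 5 of 50 (10%) and 3 of 40 (7.5%), against 5.14% of all genes. At PND14 the counts were 1 of 50 (Pimreg, 2%) and 0 of 39, below the 4.5% of all genes. These lists were compiled with knowledge of earlier results on the same libraries and are not independent of them.

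Other classes had enough cells for a comparison between ages only in endothelium, from 21 cells at PND7 to 27 at PND14. Endothelium-like cells did not have a lower G2/M sum at PND14: it was 1672 CPM (1561 to 1788) at PND7 and 2259 CPM (2145 to 2377) at PND14, 1.35-fold higher (1.24 to 1.47), and the S phase sums were 652 and 690 CPM (1.06-fold, 0.92 to 1.22). At least 2-fold higher were 2 of 23 G2/M members (2.84% of all 9405 genes were), Ccna2, the cyclin of S phase and G2 (23.7 and 82.8 CPM, 3.49-fold, 1.84 to 7.17), and Ccnb1 (25.7 and 65.9 CPM, 2.57-fold), and 1 of 17 measured S phase members, Dtl (15.8 and 49.0 CPM, 3.10-fold). Of the members 0 were lower by that much (1.02% of all were), and with joint clusters as classes 1 G2/M and 0 S phase members were higher. Cdc6, with 3 and 4 UMIs, was not measured. A class of this size can take most of its sum from few cells, and 1 cell reached 135 G2/M UMIs per 10000 at PND14 and 1 reached 105 at PND7. Markers of other cell types differed as well. Erythroid markers summed to 498 CPM in these cells at PND7 (cells from 248 to 867, 6 of 13 with a UMI) and to 3721 CPM at PND14 (cells from 136 to 63737, median 467, 6 of 13 with a UMI), with Hbb-bh1 at 0 in both. Stroma markers summed to 707 CPM (14 of 14) and 1123 CPM (13 of 14, Dpt at 0). Their part in the endothelium-like values was not tested.

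The germ-cell-like cells of ED16.5, an age at which oocytes are in meiotic prophase, had a composition of their own. Their G2/M sum was 3282 CPM (3177 to 3389), of which Hmgb2 made up 1471 CPM, Top2a 344, Cks2 268, Cenpf 189, Bub1 169 and Birc5 166 CPM. Aurkb stood at 2.65 CPM (3 UMIs), Ccnb1 at 17.7 CPM, Plk1 at 13.2 CPM and Mki67 at 53.0 CPM. Bub1, at 169 CPM, compares with 6.73 CPM in granulosa-like and 10.3 CPM in stroma-like cells of the same library. Their S phase sum was 1279 CPM (1214 to 1346), with Slbp at 272, Gmnn at 171, Mcm5 at 152 and Pcna at 147 CPM, while Tyms stood at 18.5 and Rrm2 at 37.1 CPM. At PND7 the 12 germ-cell-like cells, with a median of 81812.5 UMIs against 17621 in granulosa-like cells, had similar sums (3081 and 1324 CPM) from other members: Ube2c 722, Birc5 617, Cks2 461 and Cdk1 254 CPM, with Top2a at 24.3 and Mki67 at 13.7 CPM. In S phase, Gins2 stood at 226, Uhrf1 at 157 and Ung at 146 CPM in these cells. The Gins2 level was the highest of any class and library, and that of Ung was exceeded only by the 3 germ-cell-like cells of PND14.

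Erythroid-like cells had the highest sums at ED16.5, 5174 CPM for G2/M and 2294 CPM for S phase, led by Hmgb2 (1448 CPM), Ube2c (653 CPM), Cks2 (528 CPM), Rrm2 (419 CPM) and Slbp (354 CPM). Erythroid markers summed to 411863 CPM in this class at ED16.5, with single cells from 5138 to 972492. These member sums are therefore not on the same base as those of other classes. Mature red cells do not divide, and the 9 erythroid-like cells of PND14 had low member sums. Erythroid markers summed to 951479 CPM in them (cells from 933971 to 964596), which leaves few UMIs for any other gene. Their CPM values are therefore not a background level for other classes. The S phase sum of these erythroid-like cells was 14.8 CPM (3 UMIs) and the G2/M sum 212 CPM (43 UMIs), of which Ube2c alone made up 133 CPM. Their median depth was 16550 UMIs against 12364.5 in granulosa-like cells of that library. The 44 theca-like cells of PND14 had sums of 1062 CPM for G2/M and 658 CPM for S phase, and in them Pbk (71.2 CPM) stood above its level in granulosa-like (32.3 CPM) and stroma-like (31.4 CPM) cells.

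Per cell, the line of 5 summed member UMIs per 10000 was passed in S phase by 55.6% of granulosa-like cells at ED16.5 (40 of 72, 43.4 to 67.3), 67.4% at PND7 (60 of 89, 56.7 to 77.0) and 46.7% at PND14 (42 of 90, 36.1 to 57.5). In G2/M the shares were 30.6% (22 of 72, 20.2 to 42.5), 57.3% (51 of 89, 46.4 to 67.7) and 30.0% (27 of 90, 20.8 to 40.6). The PND7 share was the highest in both sets, and its G2/M interval did not overlap those of the other ages. In stroma-like cells the S phase shares were 77.1% (74 of 96), 58.0% (189 of 326) and 34.1% (112 of 328), and the G2/M shares 47.9% (46 of 96), 45.1% (147 of 326) and 21.3% (70 of 328). Here ED16.5 was highest at this line, although the stroma-like sums were highest at PND7, and in G2/M the ED16.5 and PND7 intervals overlapped (37.6 to 58.4 and 39.6 to 50.7). That G2/M order turned at a line of 10 (25% and 31.9%) and without Hmgb2 (30.2% and 33.1%). After thinning every cell to 5000 UMIs, with at least 3 member UMIs as the line (0 cells were shallower), the S phase shares were 50%, 65.2% and 43.3% in granulosa-like and 78.1%, 54.9% and 32.6% in stroma-like cells, and the G2/M shares 36.1%, 52.8% and 31.1%, and 49.0%, 46.0% and 22.9%. The thinned G2/M interval of granulosa-like cells at PND7 (41.9 to 63.5) overlapped that of ED16.5 (25.1 to 48.3) and not that of PND14 (21.8 to 41.7). Of the 9 erythroid-like cells of PND14, which hold few UMIs outside the erythroid markers, 0 passed the S phase line, with an upper bound of 33.6%. The G2/M line was passed by 1 of them. Of the germ-cell-like cells, 69 of 71 passed the S phase line and 71 of 71 the G2/M line at ED16.5, and 12 of 12 passed both at PND7. Passing a line thus does not by itself mark a dividing cell.

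**Figure D4:**
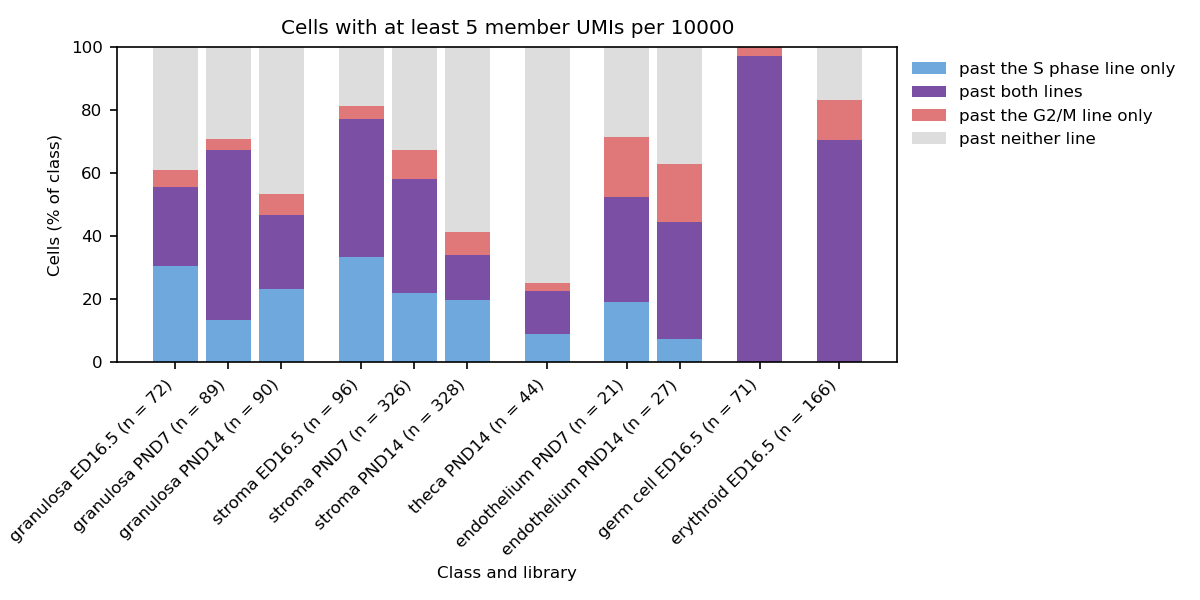
Share of the cells of each class and library with at least 5 summed S phase UMIs per 10000, at least 5 G2/M UMIs per 10000, or both, in percent of the class. Passing both lines were 25%, 53.9% and 23.3% of granulosa-like cells and 43.8%, 35.9% and 14.3% of stroma-like cells at ED16.5, PND7 and PND14.

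Many cells stood near the line. Between 4 and 6 S phase UMIs per 10000 were 29 of 72, 13 of 89 and 20 of 90 granulosa-like cells, and between 4 and 6 G2/M UMIs 17, 12 and 7. The most abundant members carried part of the ED16.5 share: without Slbp the S phase share of granulosa-like cells was 30.6%, 62.9% and 34.4%, and without Hmgb2 the G2/M share was 12.5%, 42.7% and 24.4%. A higher line, set after the values of single cells had been seen, gave other shares, and a line of 3 put the S phase share of granulosa-like cells higher at ED16.5 (90.3%) than at PND7 (84.3%). At 20 S phase UMIs per 10000 stood 0 of 72 granulosa-like cells at ED16.5, 15 of 89 at PND7 and 5 of 90 at PND14, and at 20 G2/M UMIs 2 of 72, 26 of 89 and 13 of 90. Stroma-like cells past 20 G2/M UMIs were 17 of 96, 88 of 326 and 46 of 328, so that PND7 had the highest share in both classes, 29.2% and 27.0%. The highest G2/M value of any granulosa-like cell was 33.6 per 10000 at ED16.5, 109 at PND7 and 97.1 at PND14.

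**Figure D5:**
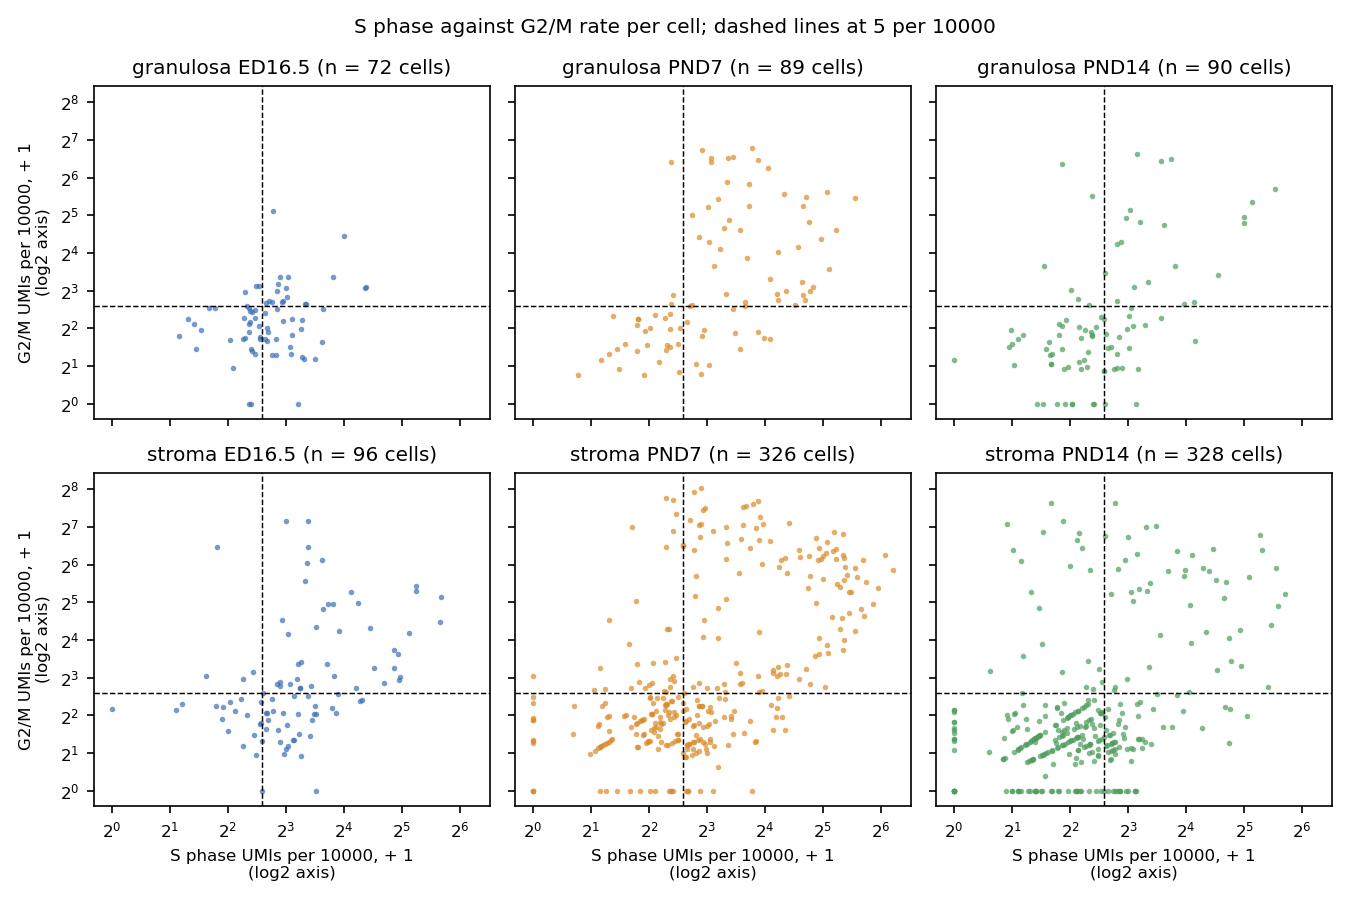
S phase against G2/M UMIs per 10000 in single granulosa-like (top) and stroma-like (bottom) cells by library, each plus 1 on log2 axes; dashed lines mark 5 per 10000. The ED16.5 granulosa-like cells lie mostly around the crossing of the lines and reach no further than 33.6 in G2/M, while those of PND7 spread up to 109.

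Cells with many members of a set at once were counted too. A thinned cell with at least 6 different members always passes the line of 3 UMIs, so such cells cannot outnumber those past it. In cells thinned to 5000 UMIs, at least 6 different G2/M members were detected in 2 of 72, 25 of 89 and 14 of 90 granulosa-like cells and in 21 of 96, 83 of 326 and 44 of 328 stroma-like cells. Germ-cell-like cells reached this in 55 of 71 at ED16.5 and 9 of 12 at PND7. Many members at once thus do not by themselves mark a dividing cell either. Of the thinned cells with a Plk1 UMI, 96.7% passed the line counted over the other G2/M members, and the same held for 96.7% with Kif11, 96.0% with Aurkb and 95.7% with Mki67. Among cells without the UMI the share was 42.6% for Plk1, 42.6% for Kif11, 40.5% for Aurkb and 35.1% for Mki67. For Hmgb2 it was 57.8% of 943 cells with a UMI against 8.76% without, and for Cks2 78.2% of 569 against 24.1%. Leaving out an abundant member makes the line harder to pass, so the shares of different members are not on an equal footing. In S phase the share was 94.0% for Cdc6, which was detected in 83 cells, against 50.4% without, 90.6% against 42.3% for Rrm2 and 59.7% against 33.1% for Slbp, detected in 714. These shares run over the thinned cells of all classes and libraries.

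Cells past either line also differed in genes outside the 41. In PND7 stroma-like cells, 219 past a line against 107 past neither, Cdkn2c, which encodes the CDK4 and CDK6 inhibitor p18, stood at 126 against 19.5 CPM (6.46-fold, 4.12 to 10.7) and its relative Cdkn2d at 60.3 against 15.6 CPM (3.86-fold, 2.32 to 6.89). The stroma genes Dcn (1896 against 2850 CPM) and Tcf21 (353 against 525 CPM) were lower in the cells past a line, as was Ccnd2 (288 against 443 CPM). The stroma genes Col1a1 and Pdgfra were compared too and are not reported here. At PND14, with 135 cells against 193, Cdkn2c stood at 90.8 against 26.3 CPM and Cdkn2d at 45.4 against 14.1 CPM, in the same direction. In PND7 granulosa-like cells, 63 against 26, Cdkn1b was 1.73-fold lower in cells past a line (104 against 181 CPM, 1.31 to 2.28), the follicle hormone Amh was higher (508 against 373 CPM), and Ccnd2 was nearly equal (1403 against 1451 CPM). Cdkn2c was at 0 UMIs in the 26 cells and 21 UMIs in the 63. Values of the granulosa genes Foxl2, Inha, Serpine2, Gng13 and Fst are not reported here, so Amh does not stand for them. The cells past a line were deeper, with medians of 20400 against 14217 UMIs in these granulosa-like cells and 11532 against 8152 in the PND7 stroma-like cells; the part of depth was not tested.

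Genes outside the 41 with the most similar profile over the 11 class and library sums of at least 20 cells were sought among 10195 genes. For the G2/M sum they were Cdca8, a chromosomal passenger subunit (Pearson r = 0.96 of log2 levels), Zfp367, a zinc finger gene (0.96), the cohesin protector Sgo1 (0.95), the condensin Smc4 (0.95), and Spc24, Spc25, Nek2, Cenpl, Smc2 and Tacc3 (0.92 to 0.93). For the S phase sum they were Mybl2 (0.93), Dlgap5 (0.92), Rad54l, a recombination gene (0.92), the cyclin Ccne1 (0.92), and Fen1, Prim2, Faap24, Orc6, Bard1 and Cenpu (0.89 to 0.91). These 11 sums come from 3 libraries that share depth and handling, and the r values are descriptions.

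Of the 41 members 13 are overlapped on the opposite strand by another annotated gene in GENCODE M21, among them Cdc20 (chr4:118432901-118437352, minus strand, by Elovl1), Prc1 (chr7:80294450-80316259, plus strand, by Rccd1) and Mcm7 (by Cops6 and Ap4m1). On the same strand, annotated genes overlap Mcm7 (Mir25, Mir93 and Mir106b), Rrm1 (Gm45399), Cdt1 (Gm20388), Top2a (Gm23451), Tpx2 (Mir5622), Nusap1 (n-R5s204), Kif11 (AC137605.4) and Cks2 (Gm22806). Pcna, Tyms, Ccnb1 and Ccnb2 have named pseudogene copies, so the split of their reads is uncertain.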

How the data were processed

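Single cells of whole mouse ovaries were measured in 3 libraries, 1 per age. The values the authors deposited are unnormalized UMI counts of each gene in each barcode. Cell Ranger 2.1.1 and build GRCm38 are named in the submitters' processing notes, while the annotation release and cell calling are not stated there. The lowest barcode held 6747, 6291 and 5568 UMIs at ED16.5, PND7 and PND14. Of all barcodes, 1548 had 200 or more genes and no more than 20% mitochondrial UMIs and were used. Each cell took the class whose markers scored highest (score at least 0.15, at least 1.25 times the next), from 125 of 126 markers of 9 classes found in the tables; joint Leiden clusters (scanpy 1.11.5) were an alternative. Scrublet called 1, 3 and 3 doublets, which stayed in.

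UMIs were summed per class and library, scaled to 1000000 (CPM) and compared as log2(CPM + 10) for genes with at least 10 UMIs in both sums together, between classes with at least 20 cells. Intervals were computed with scipy 1.17.1. A class with 0 UMIs allows 3 UMIs of its total. No test or p-value was computed. The code was tested on simulated data. Alternatives were other scaling, pseudocount, filter, line, thinning, classes, doublets and members, and levels averaged over cells in place of pooled UMIs. Named were all members by symbol, with values for the 3 most abundant and those with the 3 largest and smallest ratios per comparison and set; of the other lists the ends are named, except some that are not reported here. Members and lists were chosen with earlier results of these data known.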

Additional observations from a re-analysis of the deposited data

Results flagged for a closer look

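In 4 comparisons the share of cells past the line of 5 member UMIs per 10000 moved one way in one class and the other way in another, between the same 2 libraries. From ED16.5 to PND7 the S phase share changed by 11.86 percentage points in granulosa-like cells and by −19.11 points in stroma-like cells, a gap of 30.97 points. The G2/M share changed by 26.75 points in granulosa-like cells and by −2.825 points in stroma-like cells, a gap of 29.57 points. Both opposite signs depend on the line: at 3 per 10000 the S phase share was lower at PND7 in both classes (90.3% and 84.3%, 91.7% and 79.4%) and at 20 higher in both (0% and 16.9%, 13.5% and 17.2%), and the stroma-like G2/M share was higher at PND7 at lines of 10 (25% and 31.9%) and 20 (17.7% and 27.0%) and without Hmgb2 (30.2% and 33.1%). From PND7 to PND14 the G2/M share changed by −27.30 points in granulosa-like, −23.75 points in stroma-like and 3.175 points in endothelium-like cells, which leaves gaps of −30.48 and −26.93 points to the endothelium-like cells. Each class has 1 library per age, so these differences were not tested. The endothelium-like shares rest on 21 and 27 cells, with intervals of 29.8 to 74.3% and 35.3 to 74.5%. After thinning to 5000 UMIs the endothelium-like G2/M share was 52.4% at PND7 and 48.1% at PND14, and at a line of 3 it was 90.5% and 70.4%, so the opposite direction was lost in both.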

How the results depend on the processing

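With 1 library per age no library could be left out, and depth limits low members most (Prc1 and Cdc6 had 3 and 4 UMIs in ED16.5 granulosa-like cells). No paired analysis was possible because each group holds 1 library and the groups share only the replicate number 1. No ratio or count past 2-fold changed direction, while the order of ages in some shares of cells did. Of the log2 ratios under alternatives 283 were within counting error of the reported value and 5 were not; of the member counts 177 stayed within 1.5 times and 15 did not; of the shares of cells 120 and 78, and of the summed levels 64 and 24. Averaging levels over cells in place of pooling their UMIs moved 12 summed levels beyond counting error and left 10 within it. The cause was not tested where none is given.

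Shares are given for granulosa-like cells at ED16.5, PND7 and PND14 and then stroma-like cells. With a line of 3 per 10000 the S phase shares were 90.3%, 84.3%, 71.1%, 91.7%, 79.4% and 57.9%, and the G2/M shares 58.3%, 69.7%, 43.3%, 75.0%, 59.2% and 33.5%. With a line of 10 they were 9.72%, 39.3%, 14.4%, 34.4%, 31.3% and 12.2%, and 2.78%, 38.2%, 20%, 25%, 31.9% and 16.2%. With a line of 20, chosen after seeing the data, they were 0%, 16.9%, 5.56%, 13.5%, 17.2% and 6.71%, and 2.78%, 29.2%, 14.4%, 17.7%, 27.0% and 14.0%. The order of ED16.5 and PND7 thus turned between the lines of 3 and 5 for granulosa-like S phase shares, between the lines of 10 and 20 for stroma-like S phase shares, and between the lines of 5 and 10 and without Hmgb2 for stroma-like G2/M shares. The endothelium-like G2/M order of PND7 and PND14 turned with thinning (52.4% and 48.1%) and at a line of 3 (90.5% and 70.4%). Without Slbp (and the same without Hmgb2, Cks2 and Slbp) the S phase shares were 30.6% and 34.4% in granulosa-like cells at ED16.5 and PND14 and 66.7%, 48.2% and 24.1% in stroma-like cells. Without Hmgb2 the G2/M shares were 12.5% and 42.7% in granulosa-like cells at ED16.5 and PND7 and 30.2% and 33.1% in stroma-like cells, and without Hmgb2, Cks2 and Slbp 5.56% and 38.2%, and 25%, 31.9% and, at PND14, 16.8%.

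Members past 2-fold changed in number as follows. With a pseudocount of 1 CPM 7 S phase members were higher in granulosa-like cells at PND7 than at ED16.5, 2 S phase and 9 G2/M members were lower there at PND14 than at PND7, and 7 S phase members at ED16.5 and 3 G2/M members at PND14 were lower in granulosa-like than in stroma-like cells. With median-of-ratios scaling the G2/M members lower at PND14 than at PND7 were 3 in granulosa-like and 6 in stroma-like cells, and granulosa-like cells were lower than stroma-like cells in 8 S phase members at ED16.5 and 3 G2/M members at PND14. With a margin of 2 between classes 10 S phase members were higher in granulosa-like cells at PND7 than at ED16.5 and 8 were lower than in stroma-like cells at ED16.5. With joint clusters as classes 2 S phase members were higher in granulosa-like cells at PND7, 1 G2/M member was lower there at PND14, and 0 S phase and 1 G2/M member were higher in endothelium-like cells. With joint clusters the G2/M sum of ED16.5 granulosa-like cells was 704 CPM, against 469 CPM as reported.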
